A study of Mus musculus with 10 samples.

Results

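The genes described here are 10 mouse genes for receptors and bridging ligands with which living cells recognise and take up dying cells. They are Mertk, Axl, Tyro3, Gas6, Pros1, Mfge8, Megf10, Itgav, Itgb5 and Adgrb1, chosen by symbol from the 55471 genes of the deposited count table. Each was found as a single row, and all 10 passed the count minimum that left 17101 genes for testing.

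Whole brains of Swiss Webster mouse pups, labelled WT and given as neonatal day 5, were profiled by RNA sequencing after a hypoxic-ischemic injury, in which the brain loses blood flow and oxygen. One group of 5 pups (mice 6 to 10) received allopregnanolone, a progesterone-derived steroid that acts on GABA-A receptors, and the other 5 pups (mice 1 to 5) had the same injury and no treatment. Dose, sex, litter and the interval to collection were not used here. No uninjured pup is among the 10 libraries, so both groups carry the injury.

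A dying cell exposes the lipid phosphatidylserine on its outer surface, and phagocytes read it either directly or through a bridging protein. Gas6 and protein S (Pros1) bridge the lipid to the TAM receptor tyrosine kinases Tyro3, Axl and Mertk, while Mfge8 bridges it to the integrin made of the Itgav and Itgb5 chains. Adgrb1 (also called BAI1) binds the lipid itself and signals through the Elmo and Dock1 proteins to Rac1, and Megf10 is a receptor of astrocytes. In the brain microglia are the main phagocytes, and astrocytes use Mertk and Megf10 to take up synapses and debris.

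With allopregnanolone 3 of the 10 genes rose, namely the receptors Mertk (2.37-fold), Megf10 (1.30-fold) and Adgrb1 (1.17-fold). None fell past the threshold in edgeR, DESeq2 or limma. At an unadjusted p under 0.05 Itgb5 was lower in all of these tools, and Pros1 in DESeq2. Tyro3 and Gas6 were higher at that level in all of these tools. An unadjusted p under 0.05 was common, found in edgeR for 4700 of the 17101 genes tested and for 6 of the 10 genes, in either direction. Genes were called by the quasi-likelihood F test of edgeR where the p, adjusted by Benjamini-Hochberg across the whole table, was under 0.05. The 4 bridging and integrin genes Gas6, Mfge8, Itgav and Itgb5, the ligand Pros1 and the other TAM receptors Axl and Tyro3 did not pass. Over all genes tested 6.61% were called higher, 4.65% lower and 11.3% in either direction. The median log2 fold change of the 10 genes was 0.11, against -0.0046 over all genes tested. These log2 fold changes are allopregnanolone minus untreated.

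Libraries held 18656836 to 34270723 estimated counts, the deepest being treated mouse 6. Levels are in CPM, the count of a gene relative to the library total after scaling by the trimmed mean of M values. Among all genes tested 1131 were higher and 795 lower, and 783 were higher and 1451 lower when libraries were scaled by their totals alone. Neuron, astrocyte, oligodendrocyte, microglia and endothelial markers were all detected in every library. Untreated libraries 1 to 3 carry another prefix in their library names than the other 7, and no treated library carries it. Without them 105 genes passed over all genes, against 1926 with them, so results with that restriction are given for the 10 genes and by list for the others. In whole tissue, a change in the number of cells of a type and a change in RNA per cell cannot be told apart.

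Mertk and Axl belong to the same receptor family, and in that family Mertk changed most and Axl least. To set them side by side, the 250 bases before their RefSeq starts are shown (GRCm38.p6, 5′ to 3′ on each gene's own strand). Capitals mark the GC box, the letters GGGCGG on either strand, a motif bound by Sp-family factors.
Mertk, chr2:128698665-128698914, plus strand: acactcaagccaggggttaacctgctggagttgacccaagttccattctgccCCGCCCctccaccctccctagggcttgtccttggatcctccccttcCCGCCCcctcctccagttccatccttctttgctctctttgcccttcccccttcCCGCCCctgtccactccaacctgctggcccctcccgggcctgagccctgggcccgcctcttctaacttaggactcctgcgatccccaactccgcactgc
Axl, chr7:25788734-25788983, minus strand: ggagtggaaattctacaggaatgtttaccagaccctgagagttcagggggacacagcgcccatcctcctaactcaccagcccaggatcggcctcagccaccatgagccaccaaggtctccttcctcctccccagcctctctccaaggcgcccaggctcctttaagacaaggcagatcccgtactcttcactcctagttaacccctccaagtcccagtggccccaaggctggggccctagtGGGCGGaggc

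The Mertk window held 3 GC boxes and the Axl window 1, and 32.7% of 32851 RefSeq windows of this length held at least 1. Neither window overlapped an annotated exon. The letters AGAACA on either strand, one arm of the palindrome bound by the glucocorticoid receptor, were in neither window and in 16.1% of all windows. Of the 10 genes 8 had a RefSeq window, and none of the 8 held these letters. These letter matches are descriptions of the sequence and not measured binding.

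Mertk had the largest change of the 10 genes. Mertk (ENSMUSG00000014361, chromosome 2, 128698956 to 128802894 on GRCm38, plus strand) encodes a TAM receptor that drives uptake of dying cells by macrophages, microglia and astrocytes. It stood at 24.7, 29.5, 32.4, 34.9 and 39.2 CPM in treated mice 6 to 10, against 12.7, 14.4, 12.4, 15.4 and 12.9 CPM in untreated mice 1 to 5. Every treated library exceeded the highest untreated one, and the treated libraries were the more widely spread. The mean was 32.1 ± 5.48 CPM with allopregnanolone and 13.5 ± 1.31 CPM untreated (SD, n = 5 each). The log2 fold change was 1.25 (SE 0.11, 95% interval 1.00 to 1.49, adjusted p = 0.000107, edgeR). Behind these levels stood 524 to 827 counts per treated library and 289 to 334 per untreated library. Mertk passed in all 23 alternative analyses, with log2 fold changes of 1.16 to 1.40 and adjusted p of 6.16e-22 to 0.0233. Within the libraries of the shared name prefix, 5 treated against 2 untreated, the fold was 2.26 (adjusted p = 0.0233, edgeR).

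**Figure D1:**
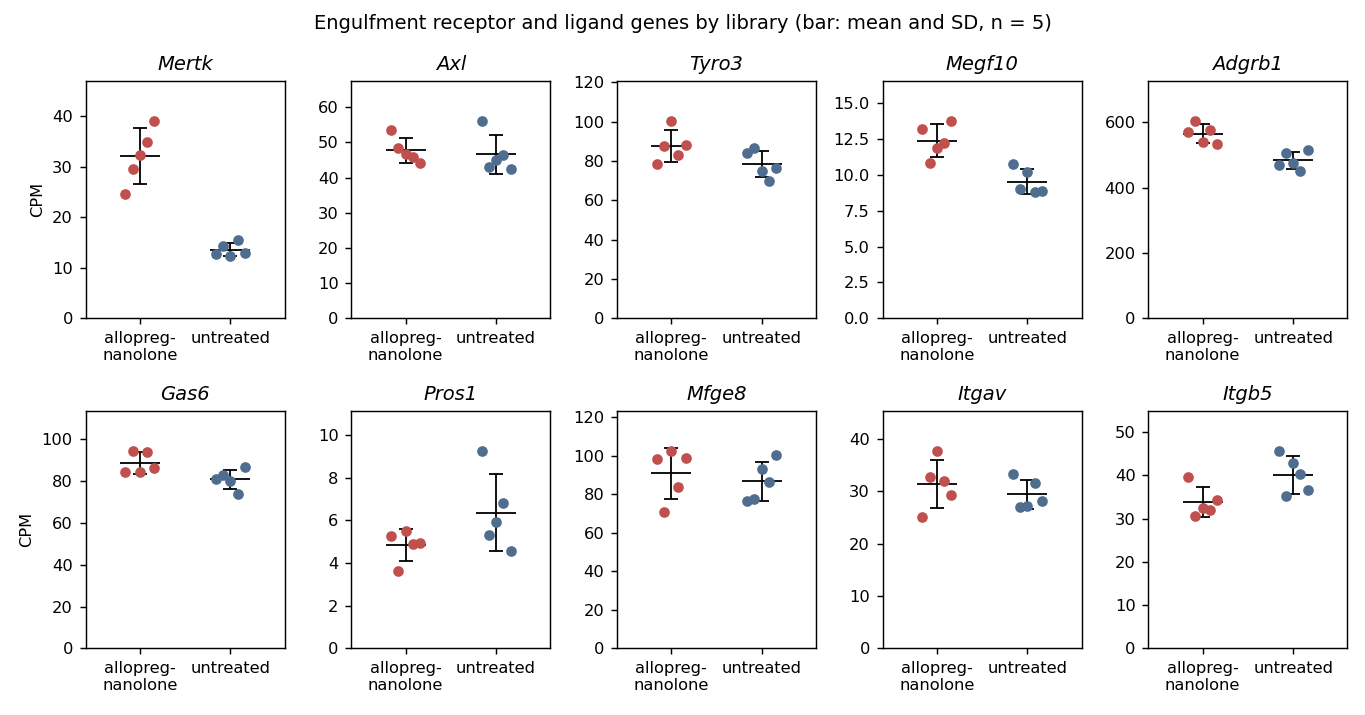
CPM of each of the 10 genes in every library, with allopregnanolone on the left and untreated on the right of each panel; points are libraries, and bars are the mean and SD (n = 5 each). All 5 treated points of Mertk, Megf10 and Adgrb1 lie above every untreated point, while the groups overlap in the other 7 panels.

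Axl, the TAM receptor typically raised in inflamed tissue (ENSMUSG00000002602, chromosome 7, 25757273 to 25788705, minus strand), did not pass. It stood at 53.5, 48.5, 46.7, 45.9 and 44.0 CPM in treated mice 6 to 10, against 56.2, 42.9, 45.1, 46.4 and 42.3 CPM in untreated mice 1 to 5. The groups overlapped throughout, and untreated mouse 1 was the highest of all. For Axl the log2 fold change was 0.04 (SE 0.08, 95% interval -0.13 to 0.21, adjusted p = 0.812, edgeR). That interval does not reach the interval of Mertk.

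Tyro3, the TAM receptor best known from neurons (ENSMUSG00000027298, chromosome 2, 119797733 to 119818104, plus strand), stood at 78.5, 87.6, 100.6, 83.2 and 88.0 CPM in treated mice 6 to 10. In untreated mice 1 to 5 it stood at 84.1, 86.5, 75.1, 69.9 and 76.7 CPM. Of the treated libraries 3 lay above every untreated library, and all 5 above the untreated median. Tyro3 did not pass, at a log2 fold change of 0.16 (SE 0.07, adjusted p = 0.180, edgeR) and an unadjusted p of 0.0494.

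Levels of different genes can be compared only per length, here as CPM per kilobase of annotated exon. On that scale the 3 TAM receptor genes summed to 31.0 ± 1.52 with allopregnanolone and 25.0 ± 1.68 untreated (SD, n = 5 each). In both groups Tyro3 was the highest, at 14.1 ± 1.33 CPM per kilobase treated and 12.7 ± 1.10 untreated, followed by Axl at 9.48 ± 0.72 treated and 9.26 ± 1.12 untreated. Mertk was the lowest on average, at 7.41 ± 1.26 CPM per kilobase treated and 3.12 ± 0.30 untreated. Mertk made up 19.6% to 28.3% of the TAM sum in treated libraries and 10.6% to 14.8% in untreated libraries. In treated mouse 10 Mertk slightly exceeded Axl, with a ratio per kilobase of 1.03, whereas the untreated ratios lay between 0.261 and 0.389. The treated ratios of Mertk to Axl were 0.535 to 1.03, with no overlap with the untreated ones.

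**Figure D2:**
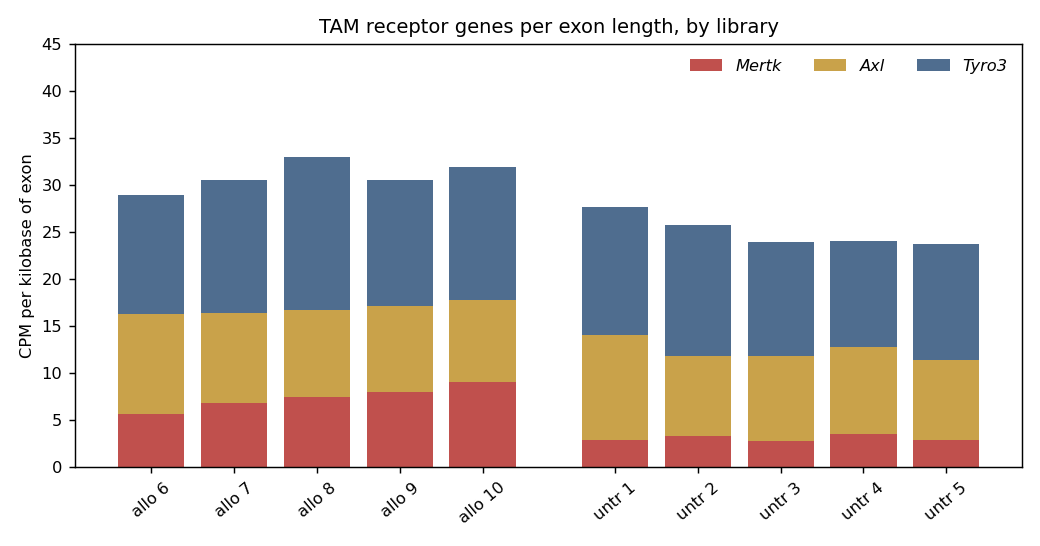
Stacked level of Mertk, Axl and Tyro3 in CPM per kilobase of exon for each library, with the 5 allopregnanolone libraries (allo) on the left and the 5 untreated libraries (untr) on the right. The Mertk part makes up 19.6% to 28.3% of each treated bar and 10.6% to 14.8% of each untreated bar.

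Megf10, a scavenger-type receptor of astrocytes (ENSMUSG00000024593, chromosome 18, 57133090 to 57297467, plus strand), was the second receptor that rose. It stood at 13.2, 10.9, 11.9, 12.2 and 13.8 CPM in treated mice 6 to 10, against 10.7, 9.01, 10.2, 8.83 and 8.90 CPM in untreated mice 1 to 5. The groups did not overlap, although treated mouse 7 and untreated mouse 1 were nearly level. The log2 fold change was 0.38 (SE 0.09, 95% interval 0.18 to 0.58, adjusted p = 0.0217, edgeR). The call was lost without treated mouse 10 (adjusted p = 0.0530, edgeR) and without untreated mouse 4 (adjusted p = 0.0624, edgeR). It was also lost with library totals alone (adjusted p = 0.0536, edgeR) and without treated mouse 6 and untreated mouse 5 together (adjusted p = 0.0646, edgeR), while the log2 fold change stayed between 0.32 and 0.48 in all 23 alternatives.

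Adgrb1, a phosphatidylserine receptor that neurons and astrocytes also carry at synapses (ENSMUSG00000034730, chromosome 15, 74516195 to 74589465, plus strand), had the highest level of the 10 genes per length, at 78.2 ± 4.10 CPM per kilobase treated and 66.9 ± 3.65 untreated (SD, n = 5 each). It stood at 568.8, 605.0, 539.3, 577.0 and 532.0 CPM in treated mice 6 to 10, against 467.8, 505.5, 475.9, 452.0 and 515.2 CPM in untreated mice 1 to 5. The lowest treated library, mouse 10, was above the highest untreated one, mouse 5. This gave a log2 fold change of 0.22 (SE 0.05, 95% interval 0.11 to 0.34, adjusted p = 0.0191, edgeR). The call was lost without untreated mouse 1 (adjusted p = 0.0511, edgeR), and the log2 fold change lay between 0.14 and 0.25 in all 23 alternatives. The absence of overlap seen for these 3 receptors was found for 5.44% of all genes tested in the higher direction.

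Neither Megf10 nor Adgrb1 passed within the libraries of the shared name prefix, where their log2 fold changes were 0.48 (adjusted p = 0.118, edgeR) and 0.22 (adjusted p = 0.224, edgeR). Neither passed without treated mice 6, 7 and 9, the libraries highest in midbrain markers, at log2 fold changes of 0.42 and 0.14 (adjusted p = 0.107 and 0.276, edgeR). Mertk passed there too, at 1.40 (adjusted p = 0.000204, edgeR).

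**Figure D3:**
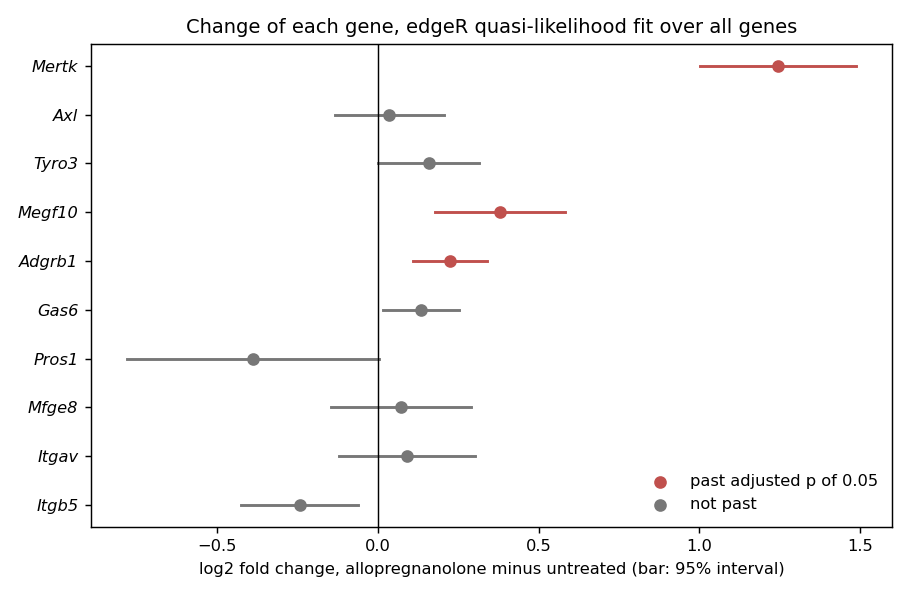
Log2 fold change of each of the 10 genes, allopregnanolone minus untreated, on the horizontal axis, with its 95% interval from the edgeR fit over all genes; red marks the genes past an adjusted p of 0.05. Mertk stands at 1.25, Megf10 at 0.38 and Adgrb1 at 0.22, and the other 7 are grey.

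The bridging ligands did not pass. Gas6, the ligand that activates all of the TAM receptors (ENSMUSG00000031451, chromosome 8, 13465374 to 13494490, minus strand), stood at 84.2, 94.6, 84.6, 94.2 and 86.3 CPM in treated mice 6 to 10. In untreated mice 1 to 5 it stood at 81.0, 82.8, 80.1, 73.9 and 86.8 CPM. Untreated mouse 5 lay above 3 of the treated libraries. The log2 fold change of Gas6 came to 0.13 (SE 0.06, 95% interval 0.01 to 0.25, adjusted p = 0.135, edgeR), at an unadjusted p of 0.0306.

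Pros1, which encodes the anticoagulant protein S and a ligand of Mertk and Tyro3 (ENSMUSG00000022912, chromosome 16, 62854307 to 62929346, plus strand), rested on the fewest counts of the 10 genes. It stood at 5.28, 3.60, 5.51, 4.89 and 4.94 CPM in treated mice 6 to 10, against 9.26, 5.30, 5.90, 6.79 and 4.54 CPM in untreated mice 1 to 5. Untreated mouse 1 was the highest, and untreated mouse 5 lay below 4 of the treated libraries. Pros1 had a log2 fold change of -0.39 (SE 0.18, 95% interval -0.78 to 0.00, adjusted p = 0.185, edgeR), on 64 to 177 counts per treated and 102 to 237 per untreated library. Per kilobase Gas6 exceeded Pros1 in every library, by 24.6 to 42.1 times in treated and 14.0 to 30.7 times in untreated libraries.

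Mfge8, the milk fat globule protein that astrocytes and microglia release (ENSMUSG00000030605, chromosome 7, 79133768 to 79149060, minus strand), ranged from 70.8 to 102.6 CPM in treated and from 76.3 to 100.3 CPM in untreated libraries. The means were 91.0 ± 13.3 CPM treated, against 86.7 ± 10.2 CPM untreated (SD, n = 5 in each group), and the log2 fold change was 0.07 (SE 0.10, 95% interval -0.15 to 0.29, adjusted p = 0.701, edgeR). Treated mouse 7 was the lowest library of all for this gene, and treated mouse 8 the highest.

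Neither integrin chain that binds Mfge8 passed, and their log2 fold changes differed in sign. Itgav, the alpha-v chain shared by several integrins (ENSMUSG00000027087, chromosome 2, 83724397 to 83806916, plus strand), averaged 31.4 ± 4.63 CPM treated, against 29.4 ± 2.81 CPM untreated (SD, n = 5 each; log2 fold change 0.09, SE 0.10, adjusted p = 0.599, edgeR). Itgb5, the beta-5 chain that pairs with it alone (ENSMUSG00000022817, chromosome 16, 33829665 to 33949338, plus strand), stood at 39.6, 30.7, 32.4, 31.9 and 34.3 CPM in treated mice 6 to 10. In untreated mice 1 to 5 it stood at 45.7, 35.2, 42.8, 40.3 and 36.5 CPM. Of the treated libraries 4 lay below every untreated library, and treated mouse 6 was the exception. The log2 fold change of Itgb5 was -0.24 (SE 0.08, 95% interval -0.43 to -0.06, adjusted p = 0.0768, edgeR). It passed as lower without treated mouse 6 (adjusted p = 0.0246, edgeR), without untreated mouse 2 (adjusted p = 0.0487, edgeR) and with library totals alone (adjusted p = 0.0444, edgeR). Without treated mouse 6 and untreated mouse 5 together Itgb5 passed as well (adjusted p = 0.0129, edgeR).

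Markers of the cells that carry these receptors moved with the groups in part. The 13 astrocyte markers summed to 4098 to 4532 CPM in treated and 3311 to 3993 CPM in untreated libraries, with 7 of 13 called higher. The 10 microglia markers summed to 287.6 to 309.1 CPM in treated and 291.5 to 360.4 CPM in untreated libraries, with 1 called higher. At an unadjusted p under 0.05 a further 2 astrocyte markers, Gfap and Aqp4, were lower, and so were Csf1r and Aif1 among the microglia markers. The 5 macrophage markers of the brain's borders summed to 8.00 to 14.6 CPM in treated and 8.10 to 13.0 CPM in untreated libraries, with 1, Cd163, called higher in edgeR but not in limma. Of the 10 markers of activated microglia 8 passed the count minimum and 4 were called lower, the list summing to 101.7 to 130.4 CPM treated and 125.6 to 251.2 CPM untreated. In DESeq2 6 of these 8 passed as lower, and in limma 5. Without treated mice 6, 7 and 9, 0 of the 8 passed, while 7 were lower at an unadjusted p under 0.05 (edgeR). All 9 markers of myelinating oligodendrocytes were called higher, with sums of 5792 to 7811 CPM treated and 1956 to 3764 CPM untreated. Of 9 endothelial markers 4 were called higher, the list summing to 224.8 to 252.8 CPM treated and 184.7 to 204.0 CPM untreated. Of 6 neuron markers 2, Tubb3 and Map2, were called lower, while Rbfox3, Snap25 and Nefl were higher at an unadjusted p under 0.05 and Rbfox3 passed in DESeq2. The neuron list stood at sums of 4596 to 5164 CPM treated and 4788 to 5254 CPM untreated. All 6 midbrain markers were called higher in edgeR and 5 in limma, with sums of 11.98 to 92.6 CPM treated and 5.98 to 16.9 CPM untreated. Treated mice 6, 7 and 9 held the high sums, at 92.6, 73.1 and 51.9 CPM. Treated mice 8 and 10, at 12.4 and 11.98 CPM, lay within the untreated range. Without treated mice 6, 7 and 9 only 3 of the midbrain markers met the count minimum and 0 passed. Of 6 red blood cell markers 1 was called higher, at sums of 975.4 to 1571 CPM treated and 598.1 to 1468 CPM untreated. The 6 choroid plexus markers, summing to 345.3 to 925.9 CPM treated and 106.7 to 854.0 CPM untreated, gave 0 calls in edgeR, DESeq2 or limma and 0 at an unadjusted p under 0.05. No marker of these lists was at 0 in all libraries, and Cst7 and the midbrain gene En1 were at 0 in some. Within the libraries of the shared name prefix, 4 of the 13 astrocyte markers and 8 of the 9 oligodendrocyte markers passed as higher. No marker of the other lists passed there in either direction. The part of these cell types in the changes of Mertk, Megf10 and Adgrb1 was not tested.

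Mertk is also known as a gene that glucocorticoids raise in macrophages, so 18 other glucocorticoid-responsive genes were read beside it. Of these 10 rose, against 6.61% of all genes tested. Plin4 is among the 10 but met the count minimum only through the treated libraries. It had 13 to 39 counts per treated and 1 to 11 per untreated library, so its call is tied to that filter. None of the 18 fell in edgeR, DESeq2 or limma, and 0 were lower at an unadjusted p under 0.05. The list had a median log2 fold change of 0.52. Those with the smallest p were Tsc22d3 (the glucocorticoid-induced leucine zipper, 2.19-fold), Hif3a (a relative of the hypoxia-inducible factors, 2.03-fold), Sult1a1 (a sulfotransferase, 2.91-fold) and Mt1 (a metallothionein, 1.80-fold). Within the libraries of the shared name prefix 3 of the 18 passed, Tsc22d3, Hif3a and Mt1, while Sult1a1 did not (adjusted p = 0.0589, edgeR). Without treated mice 6, 7 and 9, 9 of the 17 tested there passed, these 4 among them. Per1, a clock gene, and Cdkn1a, a cell cycle inhibitor, did not pass, at 0.24 (SE 0.09) and 0.09 (SE 0.13) on the log2 scale. Per1 passed without treated mouse 6 (adjusted p = 0.0296, edgeR).

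Within the groups the variation of Mertk was compared with that of every other gene tested, as Pearson's r of the deviations of log2 CPM from the group means over the 10 libraries. All 18 glucocorticoid-responsive genes had r above 0 with Mertk, from 0.186 to 0.883 with a median of 0.595, while 50.1% of the 17100 other genes had r above 0 and their median was 0.002. The highest in that list was Zbtb16, a zinc finger gene singled out after its value was seen. Zbtb16 stood at 29.5, 34.01, 48.6, 45.1 and 55.4 CPM in treated mice 6 to 10 and at 25.4, 29.0, 26.5, 27.4 and 25.7 CPM in untreated mice 1 to 5. Both genes were lowest in mouse 6 and highest in mouse 10 among treated libraries. Of the other 9 engulfment genes 3 had r above 0, and the range was -0.570 for Axl to 0.351 for Itgav. The 5 closest genes of all were Atp5f1 (r = 0.965), Sumo2 (0.959), Vamp7 (0.952), Sucla2 (0.941) and Cstf3 (0.935), none of which passed the test between the groups. These r values describe 10 libraries that share depth and RNA makeup, and the closest 5 are the extremes of 17100 comparisons. The glucocorticoid-responsive list was chosen with earlier results of these data known. A part of glucocorticoids in the change of Mertk was not tested.

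**Figure D4:**
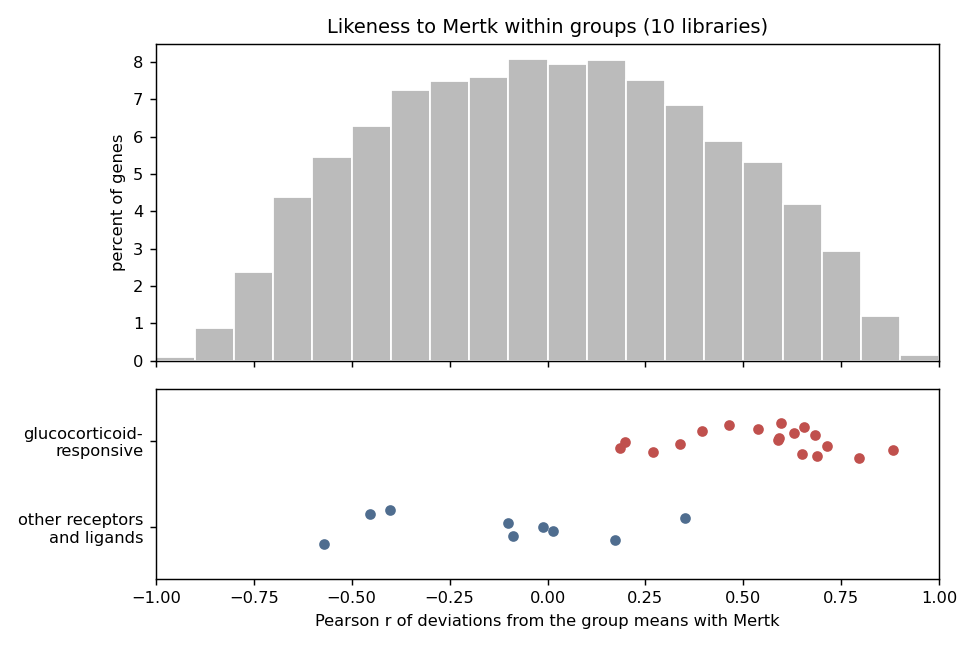
Pearson's r with Mertk of the deviations from the group means over 10 libraries, for all other genes tested (upper panel, percent of genes per bin) and for the glucocorticoid-responsive genes and the other 9 receptors and ligands (lower panel, 1 point per gene). The glucocorticoid-responsive genes lie between 0.186 and 0.883, and the other receptors and ligands between -0.570 and 0.351.

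Of 78 further genes of dead-cell uptake, in 7 lists, 72 passed the count minimum, 9 rose, 6 fell and 57 did not pass. That is 12.5% higher and 8.33% lower, against 6.61% and 4.65% over all genes tested, and the median log2 fold change was -0.01. The phosphatidylserine receptors Timd4, Havcr1 and Stab2 and the genes Cd300lb, Tulp1 and Xkr9 were below the count minimum in whole brain. Of the 15 genes called, 10 passed in every analysis that left out 1 library, and the other 5 were Bcar1, Src, Cd36, Cx3cl1 and Itgb2. Within the libraries of the shared name prefix 2 passed, Cd24a and Rxra, and without treated mice 6, 7 and 9 these 2 passed with Abcg1, Elmo2 and Panx1.

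Among other surface receptors 1 of 16 rose and 2 fell. Megf11, a relative of Megf10, rose 1.41-fold, at 21.8 ± 2.23 CPM treated, against 15.5 ± 0.79 CPM untreated (SD, n = 5 each, adjusted p = 0.00267, edgeR). Itgb2, a beta chain of leukocyte integrins, was at 1.94 ± 0.42 CPM treated, against 5.30 ± 3.45 CPM untreated (SD, n = 5 each; log2 fold change -1.44, adjusted p = 0.0247, edgeR). For Itgb2 untreated mouse 1 stood at 11.0 CPM and untreated mouse 5 at 1.78 CPM, within the treated range. The scavenger receptor Cd36 was at 0.784 ± 0.163 CPM treated, against 1.62 ± 0.54 CPM untreated (SD, n = 5 each; log2 fold change -1.06, adjusted p = 0.0308, edgeR). The calls of Itgb2 and Cd36 were lost in 3 and 7 of the 10 analyses with 1 library left out. For Itgb2 these left out treated mouse 7 or 10 or untreated mouse 4, at an adjusted p of at most 0.0564. For Cd36 they left out treated mouse 6, 7 or 9 or untreated mouse 1, 2, 3 or 4, at an adjusted p of at most 0.0772. Adgrb2, a relative of Adgrb1, and Lrp1, a large receptor of the low-density lipoprotein family, had log2 fold changes of 0.16 (SE 0.05) and 0.14 (SE 0.05) and did not pass (adjusted p = 0.0578 and 0.0819, edgeR). Both passed as higher in DESeq2, as did Itgam, an integrin alpha chain of leukocytes, as lower. Adgrb2 also passed with a filter of 100 counts and without untreated mouse 2.

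None of the 9 other bridging genes tested passed in edgeR or limma, and C1qb, a chain of complement C1q, passed as lower in DESeq2 and with library totals alone. At an unadjusted p under 0.05 C1qb and Lgals3 were lower. Others not past the threshold were Calr, which encodes calreticulin, at a log2 fold change of 0.08 (SE 0.07) and Edil3, a relative of Mfge8, at -0.03 (SE 0.08). Of 13 uptake signalling genes 3 rose. None fell in edgeR, DESeq2 or limma, and 0 were lower at an unadjusted p under 0.05 with the reported scaling. Elmo2, an adaptor of the Adgrb1 pathway, rose 1.22-fold, at 151.5 ± 4.56 CPM treated, against 124.6 ± 4.75 CPM untreated (SD, n = 5 each, adjusted p = 0.00217, edgeR). The kinase Src and its substrate Bcar1 rose 1.12-fold and 1.18-fold, and each call was lost in 8 of the 10 analyses with 1 library left out, all but those without untreated mouse 2 or 5, at an adjusted p of up to 0.103 for Src and 0.113 for Bcar1. With library totals alone neither passed (adjusted p = 0.123 for Src and 0.0787 for Bcar1, edgeR). Src was also lost with no filter, after thinning and without treated mouse 6 and untreated mouse 5 together. Elmo1, the paralogue of Elmo2, and Rac1, the GTPase that they act on with Dock1, had log2 fold changes of 0.01 (SE 0.07) and 0.07 (SE 0.05) and did not pass.

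Genes that expose phosphatidylserine or signal to phagocytes went both ways. Xkr4, of the Xkr scramblase family, rose 1.53-fold, at 19.2 ± 1.92 CPM treated, against 12.5 ± 2.66 CPM untreated, while the calcium-activated scramblase Ano6 was at 32.7 ± 2.27 CPM treated, against 39.5 ± 3.23 CPM untreated and fell (SD, n = 5 each; log2 fold change -0.27, adjusted p = 0.0218, edgeR). Atp8a1 and Tmem30a, of the flippases that return the lipid inward, did not pass at -0.06 (SE 0.06) and -0.01 (SE 0.07). Cd24a, a surface glycoprotein that is a do-not-eat signal and also marks immature neurons, fell to 57.1 ± 7.12 CPM treated against 114.1 ± 12.6 CPM untreated (SD, n = 5 each; log2 fold change -1.001, SE 0.09, adjusted p = 0.000107, edgeR). The do-not-eat pair Cd47 and Sirpa did not pass, at log2 fold changes of -0.03 (SE 0.05) and 0.11 (SE 0.06).

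Of the 6 genes that draw phagocytes to dying cells, Panx1 and P2ry6 fell and Cx3cl1 rose. Panx1, the channel that releases nucleotides, had a log2 fold change of -0.31 (SE 0.05, adjusted p = 0.00400, edgeR). P2ry6, the microglial receptor for the nucleotide UDP, was at 3.66 ± 0.45 CPM treated, against 7.32 ± 3.36 CPM untreated (SD, n = 5 each; log2 fold change -0.9996, adjusted p = 0.0175, edgeR), and -0.68 without untreated mouse 1. The chemokine Cx3cl1 rose 1.22-fold, and its call was lost in 7 of the 10 analyses with 1 library left out, those without treated mouse 7, 8, 9 or 10 or untreated mouse 1, 3 or 4 (adjusted p up to 0.0850, edgeR). The receptors Cx3cr1 and P2ry12, both microglia markers, did not pass, at -0.15 (SE 0.09) and 0.35 (SE 0.13). P2ry12 passed as higher without untreated mouse 5 (adjusted p = 0.0317, edgeR).

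Of 17 genes that act on the TAM receptors or with the lipid-sensing receptors known to raise Mertk in macrophages, 3 rose. None fell in edgeR or limma, although Socs3, a suppressor of cytokine signalling, was lower at an unadjusted p under 0.05 and passed in DESeq2 and with library totals alone. Rxrb, a relative of Rxra, passed as higher in DESeq2. Rxra, the common partner of the nuclear receptors LXR and PPAR, rose 1.58-fold, standing at 27.2, 27.1, 30.4, 28.2 and 31.2 CPM in treated mice 6 to 10 and at 17.0, 18.4, 17.7, 18.4 and 19.8 CPM in untreated mice 1 to 5 (adjusted p = 0.000152, edgeR). No treated library overlapped the untreated ones. Ppard, a PPAR receptor, rose 1.37-fold (adjusted p = 0.00777, edgeR), and Abcg1, a cholesterol exporter that LXR induces, rose 1.30-fold (adjusted p = 0.00586, edgeR). The protease Adam10, at a log2 fold change of -0.09 (SE 0.05), and Vkorc1l1, a vitamin K reductase of the cycle that matures Gas6 and protein S, at -0.10 (SE 0.05), did not pass.

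**Figure D5:**
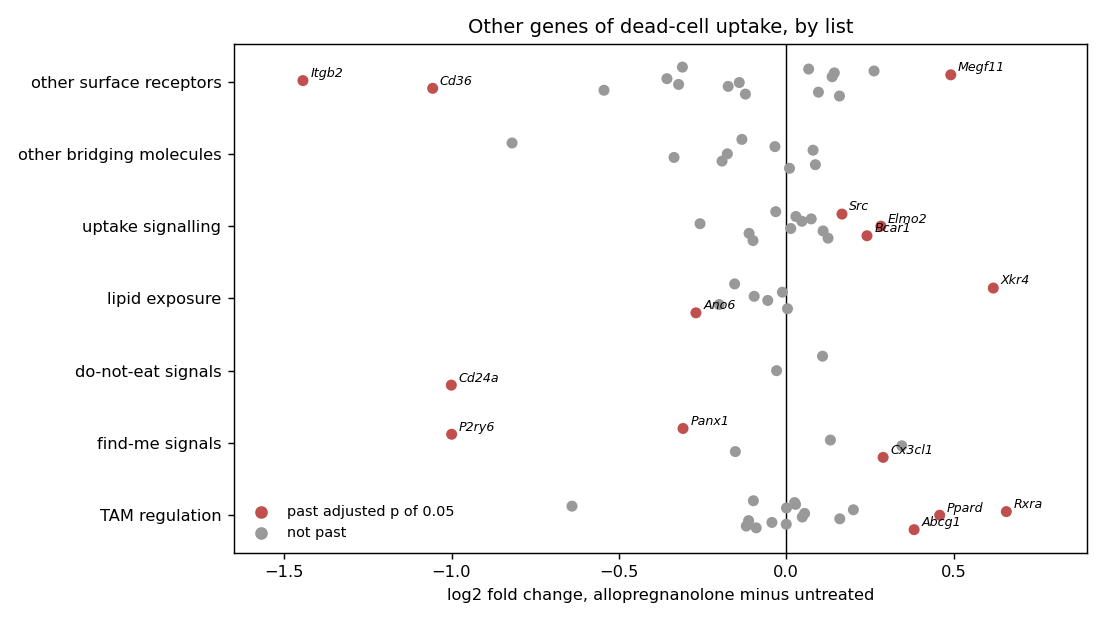
Log2 fold change of the 72 further genes of dead-cell uptake that passed the count minimum, allopregnanolone minus untreated, in 7 lists; each point is a gene, and red points with names are the 15 past an adjusted p of 0.05. Rxra and Xkr4 stand farthest to the right and Itgb2, Cd36, Cd24a and P2ry6 farthest to the left among the named genes.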

How the data were processed

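RNA was sequenced from 10 whole brains. Per the labels' protocols, 1 µg of total RNA went into directional libraries, and per the submitters' processing notes Partek and mm10 were used; the sources used here name no aligner, annotation or strand setting. The deposited table is named normalized, but holds estimated counts (expected counts): 86.8% to 87.6% of values above 0 were whole and totals differed between libraries. They were rounded to whole numbers. Symbols came from GENCODE M21 (GRCm38), which held 55230 of 55471 identifiers. Exons of Gas6 (1.3%) and Itgav (5.9%) lie opposite those of another gene, and those of Adgrb1 (1.3%) overlap a microRNA gene on the same strand. Reads there cannot be assigned with certainty. Over all libraries the overlapping genes held 595, 2 and 0 counts, against 19614 for Gas6, 6966 for Itgav and 121354 for Adgrb1.

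Genes with at least 10 counts in 5 libraries were kept (17101), scaled by TMM (factors 0.953 to 1.04) and compared in edgeR 4.0.16 (quasi-likelihood F test, R 4.3.3), two-sided and without covariates. Standard errors are the log2 fold change over the root of F. The scripts were tested on simulated data. There were 23 alternatives, among them DESeq2 1.42.0, limma 3.58.1, other scalings and filters, and each library left out. The members and gene lists were chosen with earlier results of these data known. Per list, at most 4 genes past the threshold by p and 2 abundant ones not past it are named with their values; other genes named, such as Zbtb16, C1qb, Lgals3, Socs3, Rxrb and Itgam, were chosen after their values were seen. Promoter windows are from RefSeq (GRCm38.p6). Figures were drawn with matplotlib 3.10.9. A result on a single marker is not reported here.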

Additional observations from a re-analysis of the deposited data

Results flagged for a closer look

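In 90 groups of 5 libraries (45 named genes), 3 had 1 library far from the other 4, where chance alone flags about 1 in 20. Cd24a stood at 92.2 CPM in untreated mouse 5, below the other untreated libraries at 115.3 to 123.2 CPM. Cx3cr1 stood at 73.0 CPM in untreated mouse 1, above the others at 50.3 to 56.0 CPM. P2ry6 stood at 13.2 CPM in untreated mouse 1, above the others at 5.03 to 6.51 CPM. None of the 10 receptor and ligand genes was among them.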

How the results depend on the processing

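No paired analysis was possible because the mice carry their own numbers, 1 to 5 and 6 to 10, which the groups do not share. Of the 10 genes, 3 passed under every alternative of scaling, test, filter and thinning to 18656827 counts, and 2 to 4 with 1 library left out. These were Mertk, Megf10 and Adgrb1, except with library totals alone, where Itgb5 passed as lower and Megf10 did not pass. Without untreated libraries 1 to 3, 1 of the 10 genes, 2 further uptake genes and 105 of all genes passed. Without treated libraries 6, 7 and 9, chosen after seeing the data, these were 1, 5 and 371. With 1 library left out, 1084 to 2343 of all genes and 10 to 21 further uptake genes passed. The sign of 8 log2 fold changes turned, none of them past the threshold in any alternative. Axl turned to -0.0255 with library totals alone, and Elmo1 to -0.0433 there and to -0.0002 with upper-quartile scaling. Without treated libraries 6, 7 and 9 Axl was at -0.0447, Elmo1 at -0.0395, Calr at -0.0015, Atp8a1 at 0.0508 and Tmem30a at 0.1221. Without untreated library 5 and treated library 6, also chosen after seeing the data, Mertk, Adgrb1 and Itgb5 passed and Axl was at -0.0498, Elmo1 at -0.0027, Cd47 at 0.0067 and Tmem30a at 0.0274. Without untreated libraries 1 to 3 Mfge8 was at -0.0391. With 1 library left out the ranges were -0.0156 to 0.107 for Axl, -0.0903 to 0.0153 for Edil3, -0.0301 to 0.046 for Elmo1 and -0.0605 to 0.0345 for Tmem30a. The cause of these turns was not tested.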
